A study of Mus musculus with 16 samples.

Results

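The 10 genes described here encode transcription factors that hold endothelial identity: the SOXF factors Sox17, Sox18 and Sox7, the ETS factors Erg, Fli1 and Ets1, the forkhead factors Foxf2, Foxc1 and Foxq1, and the basic helix-loop-helix factor Tal1. They were chosen by name, with earlier results of these data known. All 10 were found among the 37003 genes of the count table and passed the filter on low counts with 31085 genes in all. RNA was measured in bulk in brain endothelial cells (bECs) of mice in which endothelial Yap1 and Wwtr1, the gene of TAZ, had been deleted.

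SOXF factors bind DNA through an HMG box and act in arterial specification and in the keeping of vessel integrity. ETS factors share the ETS domain and bind the enhancers of most genes that mark endothelial cells, with ERG and FLI1 kept on in mature endothelium. FOXF2, FOXC1 and FOXQ1 share the forkhead domain, are enriched in the endothelium of the brain, and their genes lie side by side. TAL1 is a factor of the blood and endothelial lineage that works in a complex with LMO2, LDB1 and GATA factors. YAP and TAZ bind no DNA themselves and act through partners, chiefly TEAD factors.

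Both genotypes carried loxP-flanked Yap and Wwtr1 alleles (Yap fl/fl, Wwtr1 fl/fl) and had received tamoxifen. YT-iKO mice also carried 1 copy of the Pdgfb-iCreERT2 transgene, which the Pdgfb promoter drives in endothelial cells and which includes eGFP. The labels write the 2 genotypes as Pdgfb-iCreERT2+/- and Pdgfb-iCreERT2+/+, and the CTRL littermates are the Cre wild type, so the transgene itself and the deletion cannot be told apart. The mice had undergone an occlusion of the middle cerebral artery for 30 min (MCAo) and then reperfusion, or sham surgery, and CD31+ CD45- DAPI- cells were sorted 72 hours later. In the MCAo groups the ischemic territory and its counterpart of the other hemisphere were dissected, and whether each library holds both is not given in the sources used here. Each genotype gave 4 libraries after sham and 4 after MCAo, and each library pooled the tissue of several mice, so the pool is the replicate. Ages and sexes by library are not given in the sources used here.

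Counts per library summed to between 11418262 and 23074547, and the members had between 532 and 15096 counts each in every library, so counting error was small beside the spread between libraries. Levels are given as CPM, the counts of a gene scaled to a library of fixed size, after correction of the library size by TMM factors. Yap1 was at 112 ± 0.511 CPM in CTRL sham (SD, n = 4) and 49.3 ± 9.7 CPM in YT-iKO sham, and the log2 fold change averaged over operations was -1.18 (SE 0.16, adjusted p = 0.000311) in edgeR's quasi-likelihood test. For Wwtr1 it was -1.88 (SE 0.20, adjusted p = 1.24e-05), in the direction the labels give. The endothelial markers, all 12 of which passed the filter on low counts, summed to 11244 to 28439.8 CPM per library. The pericyte markers summed to 532 to 1582 CPM, the astrocyte markers to 62.1 to 113 CPM and the microglial and macrophage markers to 5.17 to 30.5 CPM. All genes of these lists passed the filter as well.

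One technical measure moved with the members' levels and is given here once. Reads on 1560 autosomal olfactory, vomeronasal and taste receptor genes, which endothelial cells are not known to use, took between 0.016% and 0.3% of the counts, an 18.7-fold range. The TMM factors, which ranged from 0.743 to 1.4, were highest in the 5 libraries with the highest receptor share and lowest in CTRL MCAo replicate 1 and YT-iKO MCAo replicate 4. Computed from only the 9123 genes whose mean reached 10 CPM, the factors ranged from 0.938 to 1.04, and the median biological coefficient of variation of the members went from 0.249 to 0.11. Since this alternative changed calls, its values stand beside the main ones and are called the abundant-gene scale. It moved the median log2 difference of all genes tested in YT-iKO against CTRL averaged over operations from 0.087 to 0.21, that after sham from 0.11 to 0.30 and that of MCAo in CTRL from 0.068 to 0.21, while that of the abundant genes in the averaged comparison was 0.0099.

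Members of a family can be close relatives in sequence, and the stretches below show how close the ETS genes are. A stretch of 120 coding bases was taken from each where their coding sequences are most alike (coding strand, 5′ to 3′, GRCm38, GENCODE M21). It lies at chr16:95361118-95361237 in exon 11 of Erg (minus strand), at chr9:32424097-32424216 in exon 9 of Fli1 (minus strand) and over chr9:32752888-32754302 in Ets1 (plus strand, crossing 1 intron). Capitals mark the 88 of 120 bases that are the same in Erg, Fli1 and Ets1.
Erg: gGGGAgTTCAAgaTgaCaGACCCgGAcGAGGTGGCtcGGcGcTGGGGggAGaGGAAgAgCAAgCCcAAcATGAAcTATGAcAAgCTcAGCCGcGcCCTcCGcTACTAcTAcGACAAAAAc
Fli1: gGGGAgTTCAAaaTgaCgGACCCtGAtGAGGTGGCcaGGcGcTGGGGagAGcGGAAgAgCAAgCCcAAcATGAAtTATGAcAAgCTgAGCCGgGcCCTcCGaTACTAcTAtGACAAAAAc
Ets1: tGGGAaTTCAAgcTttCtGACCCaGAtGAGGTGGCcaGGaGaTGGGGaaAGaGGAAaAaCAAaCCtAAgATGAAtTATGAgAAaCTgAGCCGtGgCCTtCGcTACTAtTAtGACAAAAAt

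Erg and Fli1 were the same at 107 of these 120 bases and Erg and Ets1 at 91. Between any 2 members the longest run of identical bases in the annotated transcripts, on either strand, was 39 bases (Ets1 and Foxf2), and within a family at most 32 bases (Foxf2 and Foxq1).

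The genes lie on 7 chromosomes of GRCm38. They are Sox17 (ENSMUSG00000025902) at chr1:4490931-4497354 on the minus strand, Sox18 (ENSMUSG00000046470) at chr2:181669836-181671640 on the minus strand, Sox7 (ENSMUSG00000063060) at chr14:63943673-63950732 on the plus strand, Erg (ENSMUSG00000040732) at chr16:95359169-95586593 on the minus strand, Fli1 (ENSMUSG00000016087) at chr9:32422204-32542861 on the minus strand, Ets1 (ENSMUSG00000032035) at chr9:32636221-32757820 on the plus strand, Foxf2 (ENSMUSG00000038402) at chr13:31625816-31631403 on the plus strand, Foxc1 (ENSMUSG00000050295) at chr13:31806633-31812476 on the plus strand, Foxq1 (ENSMUSG00000038415) at chr13:31556134-31560976 on the plus strand and Tal1 (ENSMUSG00000028717) at chr4:115056426-115071755 on the plus strand. Foxq1, Foxf2 and Foxc1 follow each other on chromosome 13 with gaps of 64.8 and 175 kb, and Fli1 and Ets1 are 93.4 kb apart on chromosome 9; no protein-coding gene is annotated in these gaps. Exons of other genes on the opposite strand cover 66.1% of the exon bases of Foxq1 (A530084C06Rik), 16.8% of those of Sox17 (Gm37587) and 4.15% of those of Foxf2 (Gm27516). Whether the counting used strand is not given in the sources used here, so reads of these pairs may be mixed and the Foxq1 values are uncertain.

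All 10 factors were expressed in every library, over a range of levels. Per kb of annotated exon, Sox18 stood highest with a mean of 151 CPM per kb over the 16 libraries and was above the next member, Foxf2 (90.9 CPM per kb), in 16 of 16 libraries. Foxf2 was above Fli1 (77.8) in 15 of 16. Fli1, Sox17 (73.1), Ets1 (65.4) and Erg (62.3) could not be ordered: Fli1 was above Sox17 in 7 of 16 libraries, and Sox17 above Ets1 and Ets1 above Erg in 10 of 16 each. Erg was above Foxc1 (39.3 CPM per kb) in all 16, Foxc1 above Sox7 (32.6) in 14 and Sox7 above Foxq1 (14.9) in all 16. Tal1 was lowest at 11.9 CPM per kb, under Foxq1 in 15 of 16 libraries. These orders compare genes within a library, which no library factor changes, but they depend on the exon length taken for each gene. In CTRL sham, Ets1 had 571 ± 40.4 CPM, above 99.4% of the genes tested, and Tal1 had 52.3 ± 1.97 CPM, above 88.3% of them.

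**Figure D1:**
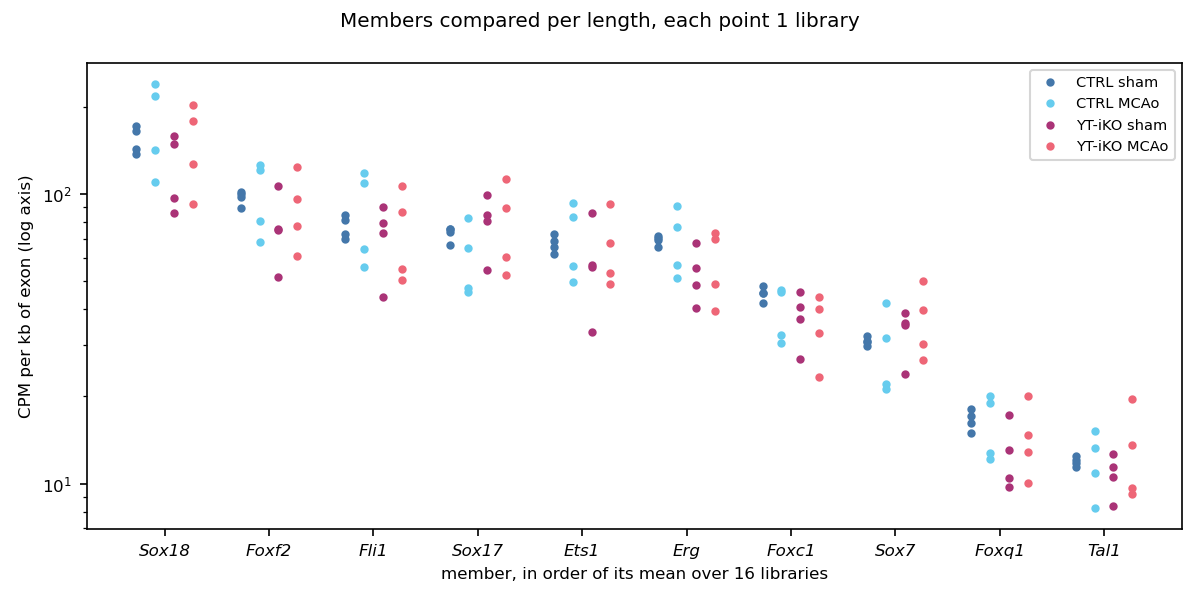
CPM per kb of exon (log axis) of the 10 members, in the order of their means over 16 libraries; each point is 1 library and colors are the 4 groups. Sox18 is highest at a mean of 151 and Tal1 lowest at 11.9, and the points of Fli1, Sox17, Ets1 and Erg overlap.

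Deletion of Yap1 and Wwtr1 was compared with CTRL after sham, after MCAo and as the average over both operations. None of the 10 members passed the test in any of these with the main factors. On the abundant-gene scale Sox17 was 24.6% and Sox7 22.8% higher in YT-iKO averaged over operations, and Erg was lower, with a difference of -15.5%. The other 7 members passed on neither scale. Relative to the median of all genes tested on that scale, Sox17 and Sox7 were at -0.042 and -0.057 after sham. That median was 0.30, while the median of the abundant genes alone was 0.012. No test set one member against another.

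The main counts were 0 of 10 members after sham (background 0.0965% of the 31085 genes tested, 30 genes), 0 of 10 after MCAo (0.0708%, 22 genes) and 0 of 10 averaged over operations (0.28%, 87 genes) at an adjusted p under 0.1 in edgeR's quasi-likelihood test. No member reached an unadjusted p of 0.05 in these fits, and DESeq2 also called 0 of 10 in each. The members' standard errors had a median of 0.252 on the log2 scale in each simple comparison, so the 95% intervals reached as far as -0.92 and 0.94 on the log2 scale.

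Scaled by abundant genes, the counts were 0 of 10 after sham (background 0.37%, 115 genes), 2 of 10 after MCAo (0.582%, 181 genes) and 3 of 10 averaged over operations (1.78%, 552 genes). All 10 members are among the abundant genes, where calls are more frequent. With only those 9123 genes tested, 213 were called after sham, 385 after MCAo and 1109 averaged over operations. The share of all calls that were higher in YT-iKO was 8.05% with the main factors and 33.0% on this scale, averaged over operations; after MCAo it was 4.55% and 22.1%. With the log2 share of receptor gene counts as a covariate and the main factors, 1 of 10 members was called averaged over operations (2.52%, 783 genes), and that was Erg.

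**Figure D2:**
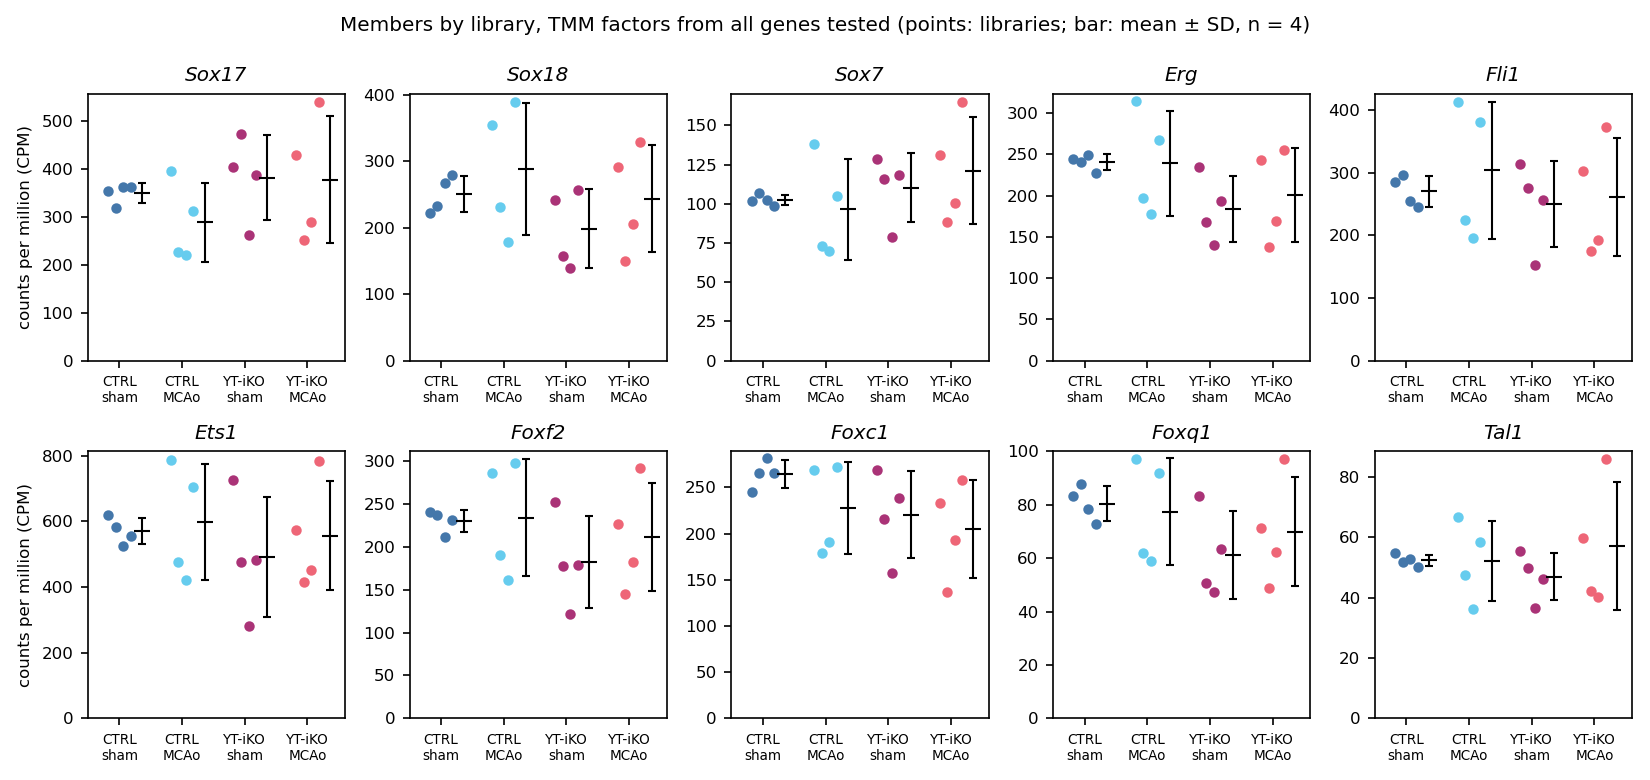
CPM of each member by library with the main TMM factors; points are libraries, in the order of their replicate numbers, and the bars give mean ± SD (n = 4). The CTRL sham libraries lie close together (Sox7 98.8 to 107 CPM), the other 3 groups spread widely, and no member separates YT-iKO from CTRL.

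**Figure D3:**
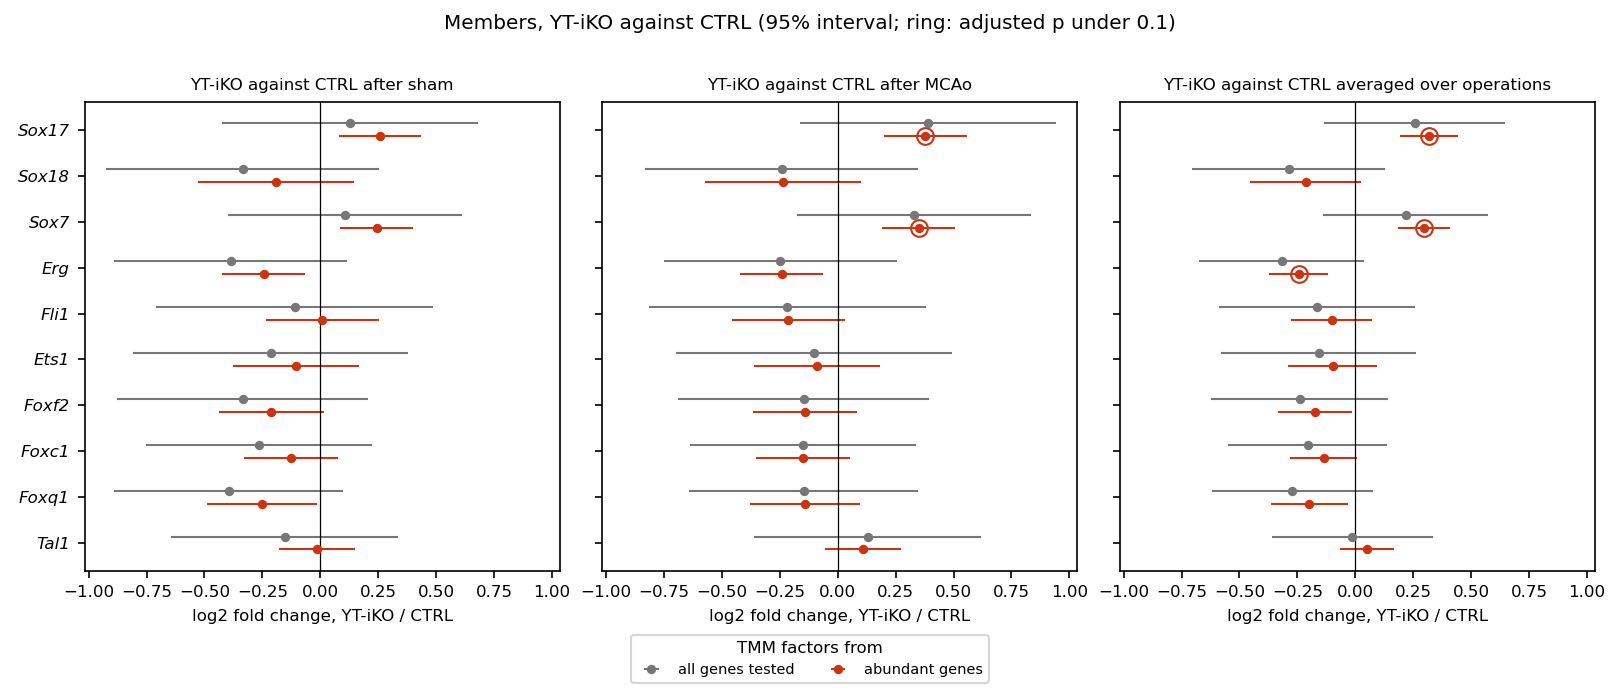
Log2 fold change (x axis) of each member in YT-iKO against CTRL with its 95% interval, after sham, after MCAo and averaged over operations; gray shows TMM factors from all genes tested, red those from abundant genes, and rings mark an adjusted p under 0.1. Sox17 and Sox7 lie right of 0 in every panel on both scales, and Erg lies left of 0.

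Among the SOXF genes, Sox17, a factor of arterial endothelium, was higher in YT-iKO than in CTRL without overlap within either operation, once scaled by abundant genes. After sham its fold change was still not above the median of all genes tested on that scale. The CTRL sham libraries had 330.0, 297, 332 and 345 CPM on that scale and the YT-iKO sham libraries 365, 439, 350.0 and 406. After MCAo the CTRL libraries had 307, 263, 276 and 283 CPM and the YT-iKO libraries 377, 339, 356 and 396. The lowest YT-iKO library lay above the highest CTRL library within each operation, while over both operations the YT-iKO MCAo library at 339 CPM was below the CTRL sham library at 345.

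The log2 fold change of Sox17 on the abundant-gene scale was 0.32 (SE 0.06, 95% interval 0.19 to 0.44, adjusted p = 0.00925) averaged over operations, 0.38 (SE 0.085, 95% interval 0.20 to 0.56, adjusted p = 0.0737) after MCAo and 0.26 (SE 0.085, 95% interval 0.079 to 0.44, adjusted p = 0.575) after sham, by edgeR's quasi-likelihood test. The averaged call held without any 1 of the 16 libraries (adjusted p 0.00493 to 0.0306). The call after MCAo held in 8 of 16 such fits and reached an adjusted p of 0.283 without CTRL MCAo replicate 2; it was also lost without replicate 1 or 3 of CTRL sham, 3 or 4 of CTRL MCAo, or 1, 3 or 4 of YT-iKO MCAo. With the main factors the averaged value was 0.26 (SE 0.19, 95% interval -0.13 to 0.65, adjusted p = 1), and with the receptor share as a covariate 0.26 (SE 0.083, 95% interval 0.095 to 0.43, adjusted p = 0.122). Relative to the median of all genes tested on the abundant-gene scale, the difference was 0.11 averaged over operations, 0.30 after MCAo and -0.042 after sham, so its sign after sham depended on the reference. The median of the abundant genes alone was 0.012 after sham, below the 0.26 of Sox17.

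Sox7, which acts beside Sox17 and Sox18 in vessel growth, differed in the same direction on that scale. After sham it was likewise not above the median of all genes tested. The CTRL sham libraries had 95, 99.6, 93.9 and 94.3 CPM on the abundant-gene scale and the YT-iKO sham libraries 116, 108, 106 and 124. After MCAo the CTRL libraries had 107, 84.9, 88 and 95.5 CPM and the YT-iKO libraries 115, 119, 124 and 121. The groups did not overlap within either operation.

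The log2 fold change of Sox7 on this scale was 0.30 (SE 0.053, 95% interval 0.18 to 0.41, adjusted p = 0.00614) averaged over operations, 0.35 (SE 0.075, 95% interval 0.19 to 0.51, adjusted p = 0.0534) after MCAo and 0.24 (SE 0.075, 95% interval 0.086 to 0.40, adjusted p = 0.466) after sham (edgeR). The averaged call held without any 1 of the 16 libraries (adjusted p 0.00205 to 0.0184), and the call after MCAo held in 10 of 16; it was lost when replicate 2, 3 or 4 of either MCAo group was left out, and reached an adjusted p of 0.231 without CTRL MCAo replicate 2. Its averaged value with the main factors was 0.22 (SE 0.17, 95% interval -0.14 to 0.57, adjusted p = 1) and with the covariate 0.24 (SE 0.085, 95% interval 0.062 to 0.41, adjusted p = 0.211). Relative to the median of all genes on the abundant-gene scale it was 0.088 averaged, 0.27 after MCAo and -0.057 after sham, where its sign turned as well. The median of the abundant genes alone was 0.012 after sham, below the 0.24 of Sox7.

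Sox18, a factor of blood and lymphatic endothelium, had 251 ± 27 CPM in the CTRL pools and 199 ± 58.7 in the YT-iKO pools after sham, and 288 ± 99.2 and 244 ± 80.9 after MCAo, with the main factors. The genotypes overlapped after both operations on both scales. The averaged log2 difference between genotypes was -0.29 (SE 0.20, 95% interval -0.70 to 0.13, adjusted p = 1) with the main factors and -0.21 (SE 0.11, 95% interval -0.45 to 0.024, adjusted p = 0.679) on the abundant-gene scale, where Sox18 also had the widest range of the members, 2.42-fold from the lowest to the highest library.

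Erg, an ETS factor whose product keeps endothelial junctions and quiescence, was called lower in YT-iKO on the abundant-gene scale averaged over operations, and was not called with the main factors. On the abundant-gene scale the CTRL sham libraries had 229, 225, 228 and 217 CPM and the YT-iKO sham libraries 211, 156, 188 and 203. After MCAo the CTRL libraries had 244, 229, 224 and 242 CPM and the YT-iKO libraries 214, 185, 208 and 187. Every YT-iKO library lay below every CTRL library.

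The log2 fold change of Erg on this scale was -0.24 (SE 0.061, 95% interval -0.37 to -0.12, adjusted p = 0.0639) averaged over operations and passed; it was -0.24 (SE 0.086, 95% interval -0.42 to -0.064, adjusted p = 0.698) after sham and -0.24 (SE 0.086, 95% interval -0.42 to -0.062, adjusted p = 0.56) after MCAo and passed in neither (edgeR). The averaged call held in 7 of 16 fits that left out 1 library, with adjusted p from 0.0348 to 0.158; it was lost without replicate 1, 2 or 3 of CTRL sham, 1, 2 or 4 of CTRL MCAo, 3 of YT-iKO sham, or 2 or 4 of YT-iKO MCAo. Erg's averaged value with the main factors was -0.32 (SE 0.17, 95% interval -0.67 to 0.039, adjusted p = 1), and with the receptor share as a covariate it was -0.30 (SE 0.091, 95% interval -0.49 to -0.12, adjusted p = 0.0966) and passed. Relative to the median of all genes on the abundant-gene scale it was -0.45 averaged, -0.54 after sham and -0.32 after MCAo. The medians of the abundant genes alone were 0.0099, 0.012 and 0.0049 in the same order.

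Fli1, which is close to Erg in sequence and targets, had 252 ± 22.5 CPM in CTRL sham and 254 ± 33.8 in YT-iKO sham on the abundant-gene scale, and 294 ± 46.8 and 253 ± 19.3 after MCAo. Its averaged log2 difference was -0.10 (SE 0.082, 95% interval -0.28 to 0.071, adjusted p = 0.826) there and -0.16 (SE 0.20, 95% interval -0.59 to 0.26, adjusted p = 1) with the main factors. Ets1, a factor of endothelial growth and migration, had 534 ± 41.1, 496 ± 119, 585 ± 50.4 and 549.7 ± 30.6 CPM in the same order. Its averaged log2 difference was -0.10 (SE 0.091, 95% interval -0.29 to 0.095, adjusted p = 0.826) on the abundant-gene scale and -0.16 (SE 0.20, 95% interval -0.58 to 0.26, adjusted p = 1) with the main factors. For both genes the libraries of the genotypes overlapped within each operation.

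The averaged differences of the 3 forkhead genes were below 0, and none passed the test on either scale. Foxf2, a factor of brain endothelium and pericytes, had 215 ± 14.6 CPM in CTRL sham and 186 ± 30.0 in YT-iKO sham on the abundant-gene scale, and 230.0 ± 28.5 and 209 ± 14 after MCAo. Its averaged log2 difference was -0.18 (SE 0.076, 95% interval -0.34 to -0.016, adjusted p = 0.499), against -0.24 (SE 0.18, 95% interval -0.62 to 0.14, adjusted p = 1) with the main factors. Foxq1, a factor enriched in brain endothelium, had 75.2 ± 5.74, 63.1 ± 11.9, 76.3 ± 4.9 and 69.2 ± 6.27 CPM in the same order, with averaged differences of -0.20 (SE 0.079, 95% interval -0.37 to -0.03, adjusted p = 0.421) and -0.27 (SE 0.17, 95% interval -0.62 to 0.078, adjusted p = 1). For Foxc1, a factor of vessel and meningeal development, the averaged differences were -0.14 (SE 0.068, 95% interval -0.28 to 0.0062, adjusted p = 0.632) and -0.21 (SE 0.17, 95% interval -0.55 to 0.14, adjusted p = 1). The unadjusted p on the abundant-gene scale was 0.0332 for Foxf2, 0.0235 for Foxq1 and 0.0597 for Foxc1.

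Tal1 had the averaged genotype difference closest to 0. It had 48.8 ± 1.52 CPM in the CTRL pools and 48.4 ± 1.57 in the YT-iKO pools after sham, and 51.4 ± 4.24 and 55.5 ± 5.84 after MCAo, scaled by abundant genes. The averaged log2 difference was 0.049 (SE 0.055, 95% interval -0.067 to 0.17, adjusted p = 0.827) there and -0.013 (SE 0.17, 95% interval -0.36 to 0.33, adjusted p = 1) with the main factors, so its sign depended on the factors.

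Scaled by abundant genes, the genotypes did not overlap for 3 of 10 members after sham (background 4.49% of genes tested) and for 3 of 10 after MCAo (3.21%), and in both cases these were Sox17, Sox7 and Erg. With the main factors the count was 0 of 10 after sham (3.85%) and 0 of 10 after MCAo (0.981%). In bulk RNA, fewer cells with a transcript and less of it per cell cannot be told apart. The endothelial markers had a median log2 difference of -0.19 on this scale, averaged over operations, beside 0.21 over all genes tested and 0.0099 over the abundant genes. Of these 12 markers 2 were lower (Robo4 and Emcn; background 1.78% of genes called, 552 genes), and the call of Emcn held in 3 of 16 fits that left out 1 library. With the main factors 0 of 12 were called (0.28%). On the abundant-gene scale 0 of 8 pericyte markers were called. The part of these markers in the members' values was not tested.

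A ratio taken within a library needs no library factor, so each member was also set against the mean log2 count of the 10 members in the same library. Sox17 was 0.83 ± 0.10 log2 units above that mean in CTRL sham (SD, n = 4) and 1.16 ± 0.24 in YT-iKO sham, and 0.58 ± 0.10 and 0.99 ± 0.073 after MCAo. Sox7 stood at -0.94 ± 0.031 and -0.62 ± 0.087 after sham and at -1.02 ± 0.12 and -0.63 ± 0.05 after MCAo. Erg stood at 0.29 ± 0.046 and 0.11 ± 0.10 after sham and at 0.31 ± 0.062 and 0.10 ± 0.10 after MCAo. The genotypes did not overlap for Sox17, Sox7 and Erg after sham (3 of 10; 3.65% of genes tested by the same ratio) and for Sox17 and Sox7 after MCAo (2 of 10; 2.59%). The ratio is centred on the members themselves, so a higher value in some goes with a lower one in others. It was chosen after seeing the data, and no test of unequal change among the members was run.

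**Figure D4:**
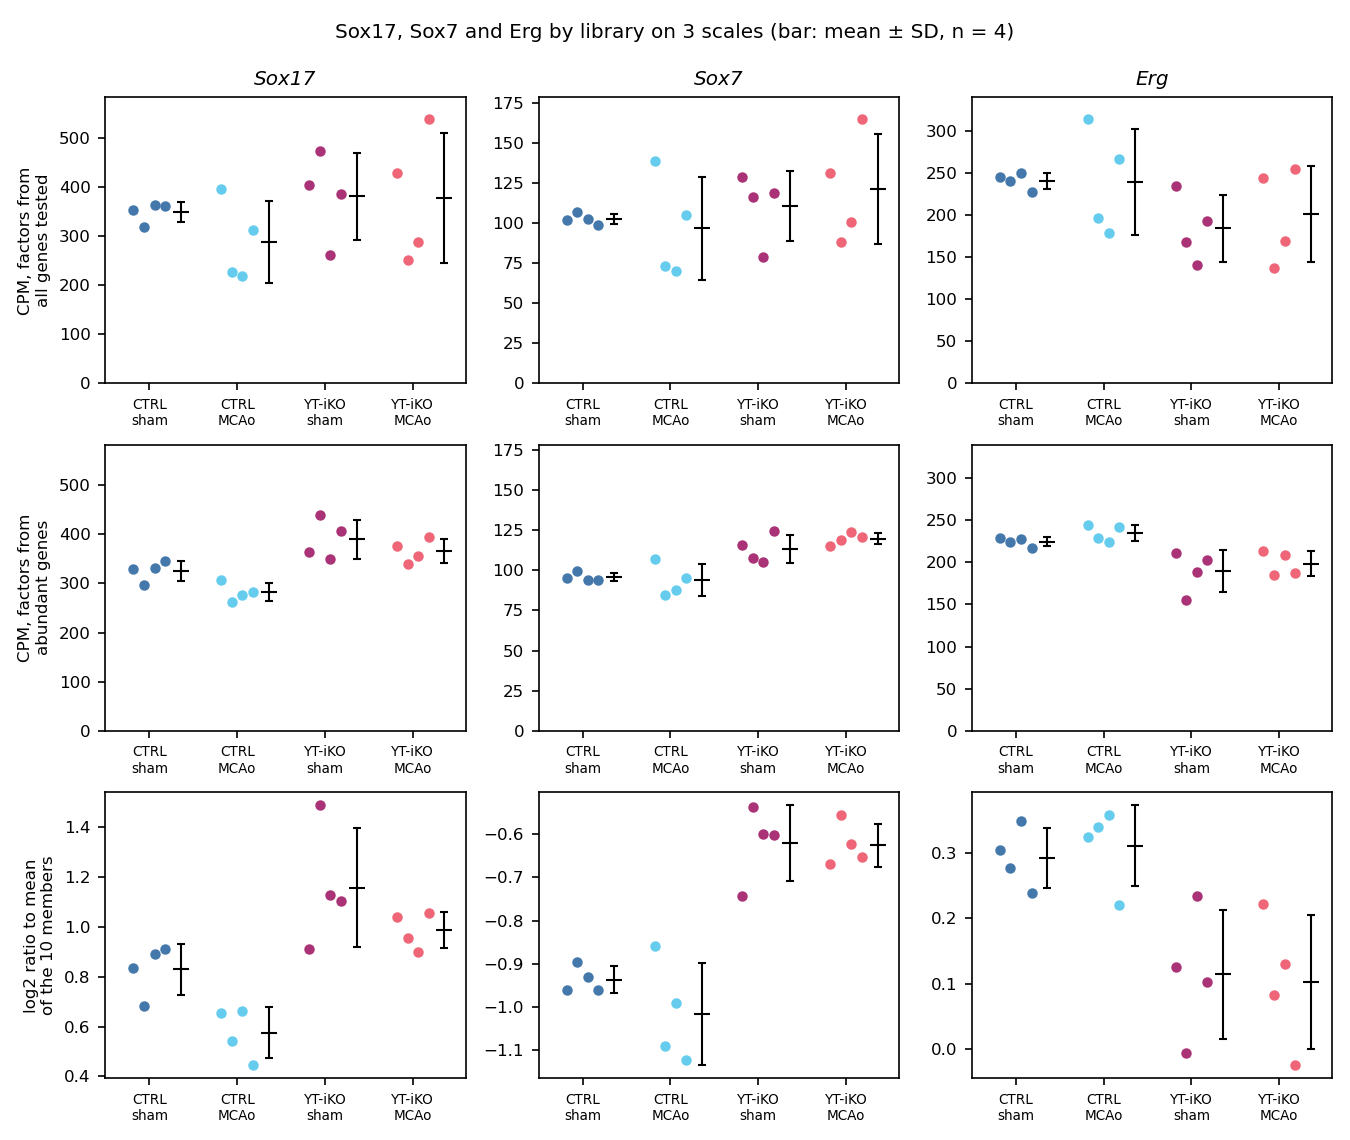
Sox17, Sox7 and Erg in each library on 3 scales: CPM with TMM factors from all genes tested (top), CPM with factors from abundant genes (middle) and log2 ratio to the mean of the 10 members in the same library (bottom). Points are libraries and bars mean ± SD (n = 4); in the middle row the genotypes separate within each operation for all 3 genes, and in the top row they overlap.

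The response to MCAo was compared within each genotype, as their average and as the difference between genotypes. No member passed the test with the main factors or on the abundant-gene scale. Sox17 was the member with the most negative averaged value on the abundant-gene scale and Sox18 the one with the most positive. The main counts were 0 of 10 in CTRL (background 0.216%, 67 genes), 0 of 10 in YT-iKO (0.318%, 99 genes) and 0 of 10 averaged over genotypes (1.23%, 383 genes), and no member had an unadjusted p under 0.05. DESeq2 called 0 of 10 in each. Scaled by abundant genes they were 0 of 10 in CTRL (1.78%, 554 genes), 0 of 10 in YT-iKO (1.72%, 534 genes) and 0 of 10 averaged (5.14%, 1598 genes). An unadjusted p under 0.05 was reached by 1, 1 and 3 members, beside 2340, 2077 and 3483 of the 31085 genes tested. The share of calls that were higher after MCAo, averaged over genotypes, was 75.7% with the main factors and 65.0% on the abundant-gene scale; in YT-iKO it was 86.9% and 71.5%.

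Averaged over genotypes, the log2 difference after MCAo on the abundant-gene scale was -0.15 (SE 0.06, 95% interval -0.27 to -0.021, adjusted p = 0.291) for Sox17, 0.24 (SE 0.11, 95% interval 0.00037 to 0.48, adjusted p = 0.444) for Sox18 and 0.14 (SE 0.055, 95% interval 0.021 to 0.25, adjusted p = 0.283) for Tal1, the 3 members with an unadjusted p under 0.05 (edgeR). With the main factors the values were -0.15 (SE 0.19, 95% interval -0.54 to 0.24, adjusted p = 1), 0.25 (SE 0.20, 95% interval -0.17 to 0.66, adjusted p = 1) and 0.14 (SE 0.17, 95% interval -0.21 to 0.49, adjusted p = 1). In CTRL alone Sox17 was -0.21 (SE 0.085, 95% interval -0.39 to -0.028, adjusted p = 0.488) on the abundant-gene scale and -0.28 (SE 0.27, 95% interval -0.83 to 0.28, adjusted p = 1) with the main factors, and in YT-iKO -0.088 (SE 0.085, 95% interval -0.27 to 0.091, adjusted p = 1) and -0.016 (SE 0.27, 95% interval -0.57 to 0.54, adjusted p = 1). For Sox18 the main values were 0.20 (SE 0.28, 95% interval -0.39 to 0.79, adjusted p = 1) in the CTRL pools and 0.29 (SE 0.28, 95% interval -0.29 to 0.88, adjusted p = 1) in YT-iKO.

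The other members' averaged responses on the abundant-gene scale were -0.14 for Foxc1, 0.027 for Sox7, 0.067 for Erg, 0.11 for Fli1, 0.14 for Ets1, 0.13 for Foxf2 and 0.077 for Foxq1, with standard errors between 0.053 and 0.091. With the main factors they were -0.16, 0.025, 0.061, 0.11, 0.12, 0.12 and 0.069 in the same order, with standard errors between 0.17 and 0.20. Both scales put Sox17 and Foxc1 below 0 and the other 8 members above it. This order of signs was lost in limma-voom with sample quality weights, which called 17018 of the 31085 genes, put all 10 members below 0 and called 5 of them.

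Some markers of other cells moved with MCAo. On the abundant-gene scale 4 of 8 pericyte markers, 2 of 7 fibroblast markers and 2 of 6 smooth muscle markers were higher (background 5.14% of genes called in either direction, 1598 genes), with medians over the lists of 0.50, 0.77 and 0.21 beside 0.11 over all genes tested, and 2 of 12 endothelial markers were higher and 1 lower. With the main factors the counts higher were 0 of 8, 2 of 7, 2 of 6 and 1 of 12 in the same order of lists (1.23%, 383 genes). Their part in the members' values was not tested.

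No member's libraries separated MCAo from sham with the main factors in CTRL (0 of 10, background 4.14%) or in YT-iKO (0 of 10, 1.28%). On the abundant-gene scale the count was also 0 of 10 in each genotype. Taken as the ratio to the 10 members, MCAo and sham did not overlap for Sox17 in CTRL (1 of 10; 6.07% of genes tested), where it went from 0.83 ± 0.10 to 0.58 ± 0.10, and for Foxc1 in YT-iKO (1 of 10; 2.59%), where it went from 0.38 ± 0.041 to 0.14 ± 0.14.

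The difference of the MCAo response between genotypes was called for 0 of 10 members (background 0% of genes tested, 0 genes) with the main factors and for 0 of 10 (0%, 0 genes) on the abundant-gene scale, and no member had an unadjusted p under 0.05. Over all genes tested, 116 had an unadjusted p under 0.05 with the main factors and 196 on the abundant-gene scale, and DESeq2 and limma-voom called 0 genes each. The members' estimates lay between -0.11 and 0.28 on the log2 scale with the main factors and between -0.22 and 0.12 on the abundant-gene scale, with the 95% intervals of the latter reaching from -0.57 to 0.45.

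**Figure D5:**
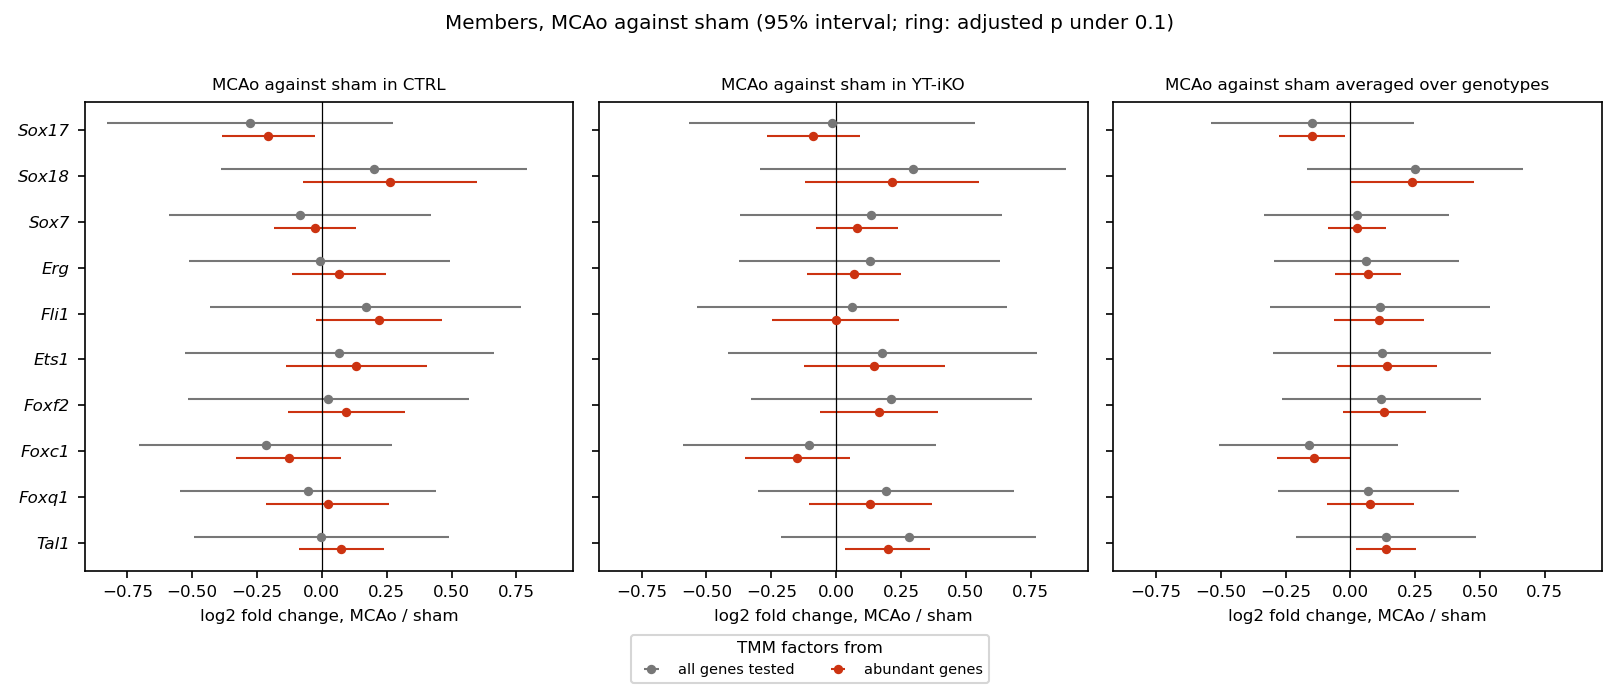
Log2 fold change (x axis) of each member after MCAo against sham with its 95% interval, in CTRL, in YT-iKO and averaged over genotypes; gray shows TMM factors from all genes tested and red those from abundant genes. No value is ringed, so none had an adjusted p under 0.1, and Sox17 and Foxc1 lie left of 0 in the averaged panel.

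The relatives and partners of the members were taken from lists of 110 transcription factors, of which 107 were tested: 23 other ETS, 15 other SOX and 34 other forkhead factors, 13 partners of TAL1 and 22 other factors of endothelial identity or the blood-brain barrier. After MCAo, averaged over genotypes, 3 of 107 were called (background 1.23% of genes tested) and all were higher. Elf4, an ETS factor that restrains T cell proliferation, had 9.83 ± 2.7 CPM in the CTRL pools and 11.4 ± 2.19 in the YT-iKO pools after sham, and 19.7 ± 6.58 and 18.1 ± 5.95 after MCAo, and its log2 fold change was 0.83 (SE 0.19, adjusted p = 0.0283) in edgeR's quasi-likelihood test. Erf, an ETS repressor, was at 0.87 (SE 0.23, adjusted p = 0.094), and Foxp4, a forkhead factor, at 1.10 (SE 0.23, adjusted p = 0.0187). With 1 library left out the Foxp4 call held in 16 of 16 fits and the Elf4 call in 15, reaching an adjusted p of 0.105 without CTRL sham replicate 2. The Erf call held in 5 of 16 fits: it was lost without any library of CTRL sham, without replicate 1, 2 or 4 of CTRL MCAo, 2, 3 or 4 of YT-iKO sham or 1 of YT-iKO MCAo, and reached an adjusted p of 0.25 without CTRL MCAo replicate 4. In YT-iKO against CTRL averaged over operations 1 of 107 was called (0.28%): Meox1, a homeobox factor, was lower at -0.85 (SE 0.18, adjusted p = 0.048), with 11.3 ± 1.51 CPM in the CTRL pools and 6.75 ± 1.97 in the YT-iKO pools after sham, and 15.3 ± 3.79 and 7.85 ± 2.17 after MCAo. The Meox1 call held in 13 of 16 fits that left out 1 library and not in those that lacked replicate 3 of YT-iKO MCAo, 4 of CTRL MCAo or 2 of CTRL sham, with an adjusted p of up to 0.165. Over the 107 factors the number called ranged from 1 to 5 after MCAo and from 0 to 2 between genotypes in these fits. In the other comparisons 0 of 107 were called.

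Scaled by abundant genes, 20 of 107 were called after MCAo averaged over genotypes (background 5.14% of genes tested, 1598 genes) and 7 of 107 in YT-iKO against CTRL averaged over operations (1.78%, 552 genes). With only the 9123 abundant genes tested, 2203 and 1109 genes were called in these comparisons. Among the other ETS factors 5 of 23 were higher after MCAo and 0 lower. Among the other endothelial and barrier factors 3 of 22 were higher and 6 lower. Named for their calls on this scale, after their values were seen, were Hey1, a Notch target, at 0.48 (SE 0.093, adjusted p = 0.0113) in YT-iKO against CTRL, Bcl6b, an endothelial repressor, at 0.48 (SE 0.11, adjusted p = 0.0292), and Sox13, of the SOXD group, at 0.33 (SE 0.085, adjusted p = 0.0817). The calls of Hey1 and Bcl6b held in 16 of 16 fits that left out 1 library, and that of Sox13 in 3 of 16, each of them lacking a YT-iKO library, with an adjusted p of up to 0.19 without CTRL sham replicate 3.

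A list of 27 endothelial genes known as targets of ETS, SOX or forkhead factors was read the same way, and all 27 were tested. In YT-iKO against CTRL averaged over operations 0 were higher and 1 lower with the main factors (background 0.28% called in either direction), with a median log2 difference of -0.20 beside 0.087 over all genes tested and -0.058 over the abundant genes. The called gene was Angpt2, a ligand of TIE2, at -1.03 (SE 0.16, adjusted p = 0.00266), with 35.9 ± 6.54 CPM in the CTRL pools and 13.8 ± 1.78 in the YT-iKO pools after sham, and 35.1 ± 4.98 and 21.7 ± 8.19 after MCAo; after sham alone it was at -1.38 (SE 0.23, adjusted p = 0.015). The averaged call held in 16 of 16 fits that left out 1 library, and that after sham in 15, with an adjusted p of 0.161 without YT-iKO sham replicate 4. The paper that reported these data counts Angpt2 among the targets of YAP and TAZ themselves. Whether its difference passes through the members was not tested. Averaged over operations, 1109 of the 9123 abundant genes were called when only they were tested. With the abundant-gene factors 5 of 27 were lower and 0 higher (1.78%), with a median of -0.14 beside 0.21 over all genes tested and 0.0099 over the abundant genes. Besides Angpt2 these were Robo4, a guidance receptor of endothelium, at -0.71 (SE 0.053, adjusted p = 5.2e-07), Eng, a TGF-beta co-receptor, at -0.63 (SE 0.086, adjusted p = 0.000562), Ptprb, the phosphatase VE-PTP, at -0.65 (SE 0.073, adjusted p = 6.15e-05), and Emcn, a sialomucin, at -0.28 (SE 0.075, adjusted p = 0.097), all but Angpt2 named after their values were seen. With 1 library left out the calls held in 16 of 16 fits for Angpt2, Robo4, Eng and Ptprb, and in 3 of 16 for Emcn, with an adjusted p of up to 0.252 without CTRL MCAo replicate 4.

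After MCAo averaged over genotypes 1 of the 27 targets was higher and 0 lower with the main factors (background 1.23% in either direction). It was Vwf, the von Willebrand factor of endothelial storage granules, at 2.17 (SE 0.27, adjusted p = 7.23e-05), with 1207 ± 182 CPM in the CTRL pools and 789 ± 81.2 in the YT-iKO pools after sham, and 4776 ± 1969 and 4013 ± 2249 after MCAo. Within genotypes it was at 1.98 (SE 0.38, adjusted p = 0.0281) in the CTRL pools and 2.35 (SE 0.38, adjusted p = 0.00526) in YT-iKO. The averaged and YT-iKO calls held in 16 of 16 fits that left out 1 library, and the CTRL call in 13, and not in those that lacked replicate 4 of CTRL MCAo or 1 or 2 of CTRL sham, with an adjusted p of up to 0.235. With the abundant-gene factors 4 of 27 were higher and 3 lower (5.14%). With only the 9123 abundant genes tested, 2203 genes were called. The averaged values of the members themselves lay between -0.16 and 0.25 with the main factors.

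RefSeq promoter sequences (GRCm38.p6) were at hand for Erg, Foxf2, Foxc1 and Tal1, 4 of the 10 members. The 250 bases before the first annotated start were searched on both strands for the letters CCGGAA and CAGGAA (ETS), ACAAT (SOX), TAAACA (forkhead) and GGAATG (TEAD); GGAATG can overlap either ETS motif. Over 32817 promoters these letters were found in 12%, 25.7%, 27.7%, 12% and 12.6%. The promoter of Tal1 at chr4:115056176-115056425 (plus strand) held GGAATG letters once, 53 bases before the start, and that of Foxc1 at chr13:31806396-31806645 (plus strand) held CCGGAA letters once, 62 bases before the start. That of Erg at chr16:95586594-95586843 (minus strand), shown because Erg was called on the abundant-gene scale, held none of them, and neither did that of Foxf2. Capitals mark the matches, on whichever strand they were read.
Tal1: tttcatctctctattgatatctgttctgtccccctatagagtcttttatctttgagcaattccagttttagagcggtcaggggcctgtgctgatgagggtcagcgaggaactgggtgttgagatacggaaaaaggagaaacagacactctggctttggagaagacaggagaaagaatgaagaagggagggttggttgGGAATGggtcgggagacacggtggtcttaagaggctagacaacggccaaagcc
Foxc1: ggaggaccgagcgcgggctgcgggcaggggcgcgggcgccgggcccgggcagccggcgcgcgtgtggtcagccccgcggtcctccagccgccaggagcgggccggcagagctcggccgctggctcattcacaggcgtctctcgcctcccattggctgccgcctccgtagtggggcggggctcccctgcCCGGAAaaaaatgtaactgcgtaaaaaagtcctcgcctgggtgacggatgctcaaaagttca
Erg: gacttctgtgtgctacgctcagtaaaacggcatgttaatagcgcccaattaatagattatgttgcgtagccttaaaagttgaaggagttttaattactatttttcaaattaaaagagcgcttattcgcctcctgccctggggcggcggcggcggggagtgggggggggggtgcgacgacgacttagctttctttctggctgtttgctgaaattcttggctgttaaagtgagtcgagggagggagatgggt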

How the data were processed

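The authors deposited 1 table of raw counts per gene for bulk RNA-seq of sorted bECs, 16 libraries made with a SMART-Seq low-input kit. The submitters' processing notes name STAR 2.7.8a, GRCm38 and DESeq2; the counting tool and its strand setting are not given in the sources used here. Each library is a pool of several mice, and nothing says how separately the pools were prepared, so p-values measure the spread between these pools. Counts were analysed in R 4.3.3 with edgeR 4.0.16: genes were kept by filterByExpr (minimum count 10, minimum total 15), scaled by TMM, and tested with the quasi-likelihood test in 1 model of the 4 groups over all 16 libraries. P-values were adjusted by Benjamini-Hochberg over all 31085 genes tested, and a gene was called at an adjusted p under 0.1. Error values are SD over 4 libraries unless named otherwise, and intervals are 95%. Library totals, given in the report, make counting error small for the members.

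The alternatives were DESeq2 1.42.0, limma 3.58.1 (voom with sample quality weights), RLE factors, TMM factors from genes averaging 10 CPM or more, no filter, a filter of CPM above 1 in 4 libraries, a threshold of 0.05, the 2 compared groups alone, the replicate number as a block, the receptor share as a covariate, and each library left out in turn. The ratio to the member mean, and the combinations of the abundant-gene factors with other alternatives and with libraries left out, were added after seeing the data. The members were named in every comparison, and other genes of the lists when called in the main model; exceptions are said in the text. The members and lists were chosen with earlier results of these data known. Of the 37003 gene IDs, 36841 had an entry in GENCODE M21. The code was tested on simulated counts.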

Additional observations from a re-analysis of the deposited data

Results flagged for a closer look

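Foxf2 in CTRL sham replicate 3 stood apart from the other libraries of its group when scaled by abundant genes. It had 193.6 CPM, while the other 3 libraries had between 221 and 225 CPM, so the gap to the nearest took 0.869 of the range of the group. The same reading was made for the 10 members in 4 groups on each of 2 scales, 80 groups in all, and chance gives such a gap in about 1 in 20 groups. No other group of a member met it.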

How the results depend on the processing

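In the main model 0 of 10 members were called in each of the 7 comparisons, and this held under DESeq2, RLE factors, no filter, the CPM filter, a threshold of 0.05, the replicate block and each library left out, and in the 2 compared groups alone for the 4 comparisons between 2 groups. With TMM factors from abundant genes, 2 members were called in YT-iKO against CTRL after MCAo and 3 averaged over operations; the counts were 2 and 3 with the block added, where 194 and 592 of 31085 genes were called, and 0 to 2 and 2 to 3 when each library was left out. After MCAo the count was 0 without replicate 2, 3 or 4 of CTRL MCAo or 3 or 4 of YT-iKO MCAo, 1 in 4 other such fits and 2 in 7. With only abundant genes tested, 2, 3 and, for MCAo averaged, 1 member were called, beside 385, 1109 and 2203 of 9123 genes. The receptor covariate gave 1 averaged over operations. Limma-voom weights gave 3, 2 and 5 for MCAo in CTRL, in YT-iKO and averaged, beside 7538, 5626 and 17018 genes; with abundant-gene factors they gave 2 after sham, 1 after MCAo, 1 for MCAo in CTRL, 1 for MCAo averaged and 3 for genotype averaged, beside 264, 118, 1336, 1514 and 551 of 31085 genes. The cause of these differences was not tested.

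Of the 107 other transcription factors, counts moved as follows, with settings in the order DESeq2, voom weights, abundant-gene factors, covariate, abundant-gene factors with block, with those genes only and with voom. Genes called in the same settings follow each series, of 31085 tested except in DESeq2 (15479 to 19066 with an adjusted p), those genes only (9123), the CPM filter (25536) and the 2 groups alone (24690 to 27227). For MCAo averaged (main 3) they were 5, 65, 20, 23, 19, 23 and 18, beside 766, 17018, 1598, 2144, 1690, 2203 and 1514 genes. For genotype averaged (main 1) they were 2, 7, 7, 7, 8, 11 and 9, beside 215, 746, 552, 783, 592, 1109 and 551. For MCAo in CTRL (main 0) they were 2, 41, 7, 10, 6, 10 and 14, with 1 under the CPM filter and 5 in the 2 groups alone, beside 203, 7538, 554, 811, 618, 918, 1336, 121 and 623. For genotype after MCAo (main 0) they were 1, 1, 2, 2, 1, 4 and 1, with 1 in the 2 groups alone, beside 78, 257, 181, 278, 194, 385, 118 and 32. For MCAo in YT-iKO (main 0) voom gave 35, abundant-gene factors 7, the covariate 1, the block with abundant-gene factors 8 and those genes only 14, beside 5626, 534, 582, 575 and 920 genes; after sham (main 0) the covariate gave 1 and abundant-gene factors with voom 4, beside 155 and 264. Leaving out 1 library gave 1 to 5 for MCAo averaged, 0 to 2 for genotype averaged, 0 to 2 for MCAo in CTRL and 0 to 1 for genotype after MCAo.

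Signs of small log2 differences turned. With abundant-gene factors Fli1 after sham was at 0.0087 and Tal1 averaged over operations at 0.049; with those genes only 0.011 and 0.050, with voom 0.052 and 0.0077, and with the block Tal1 was at 0.049. For Sox7 after MCAo averaged the values were -0.010 with no filter, -0.012 with the replicate block, -0.030 with the covariate, -0.0041 with abundant-gene factors and voom, and -0.0084 with abundant-gene factors without CTRL MCAo replicate 1. Voom weights with main factors put MCAo averaged at -0.087 for Sox18 (-0.078 in CTRL, -0.096 in YT-iKO), -0.32 for Sox7, -0.23 for Erg, -0.32 for Fli1, -0.20 for Ets1, -0.17 for Foxf2, -0.19 for Foxq1 and -0.20 for Tal1, and Tal1 after MCAo in the genotype comparison at -0.15. Leaving out 1 library gave -0.22 to 0.070 for Fli1 after sham, -0.14 to 0.26 for Tal1 after MCAo, -0.14 to 0.052 for Tal1 averaged over operations, and for MCAo averaged -0.096 to 0.080 for Sox7, -0.032 to 0.12 for Erg and -0.028 to 0.13 for Foxq1, and -0.25 to 0.10 for Sox17 in YT-iKO.

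Over all genes, 87 were called for genotype averaged and 383 for MCAo averaged in the main model; besides the counts above they were 160 and 641 under the CPM filter and 149 and 448 with the replicate block. For genotype after sham, genotype after MCAo, MCAo in CTRL and MCAo in YT-iKO the main counts were 30, 22, 67 and 99. Not given above are 65 after sham and 239 in YT-iKO in DESeq2, 143 after sham with voom weights, and 126 after sham and 17 in YT-iKO in the 2 groups alone. Nothing in the labels ties equal replicate numbers to a shared day or litter. Deviations from the group means had a median correlation of 0.26 between same-numbered libraries and -0.13 between others, 17 of 24 same-numbered pairs were over 0.1, and 9 of 16 libraries correlated best with their own number. This is a hint from the data, not from the design, and since not every pair was over 0.1 the block was kept as an alternative.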
